A study of Mus musculus with 6 samples.

Results

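The nuclear envelope genes described here are the lamin genes Lmna, Lmnb1 and Lmnb2, the inner nuclear membrane genes Lbr and Emd with the chromatin-binding partner Banf1, and the LINC complex genes Sun1, Sun2, Syne1 and Syne2. They were chosen by their gene symbol in the deposited expression matrix, which gave 10 of its 45777 genes, and all 10 passed the filter on low counts. B16F10, a mouse melanoma cell line, was grafted into the hind footpad or the flank skin, and sequencing of total RNA from 3 tumors of each site was used to ask how gene expression differs between a site under mechanical load and one that is not. All 6 tumors are labelled as grafts in Foxn1-/- mice of 8 weeks, which lack thymus-derived T cells but keep myeloid cells. The paper's methods also describe B16F10 grafts in C57BL/6J mice, and its text does not name the host of the sequenced tumors. One cell line was used. The labels speak of tumors removed from the graft sites and the methods of tumor cells isolated from them, with no way of separating other cells named, and markers of host cells were detected in every library. In the syngeneic grafts of the methods the sites of one mouse were injected together, a figure legend counts 3 mice, and neither the labels nor the methods say whether a footpad and a flank tumor with the same number came from one mouse.

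Lamins are intermediate filament proteins that line the inside of the nuclear envelope. Lmna encodes the A-type lamins, which are known to be abundant in cells of stiff and mechanically loaded tissues, whereas the B-type lamins Lmnb1 and Lmnb2 are made in most cells and stay attached to the membrane through a lipid anchor. SUN proteins in the inner membrane and nesprins in the outer membrane join into the LINC complex, which links the lamina to the cytoskeleton.

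The matrix holds 1 Lmna row, which pools the transcripts of lamin A and lamin C. The last 30 coding bases of the GENCODE transcripts on GRCm38, given 5′ to 3′ with the stop codon at the end, show what the row cannot separate and what the A-type precursor shares with the B-type lamin Lmnb2. Capitals mark the 4 codons of the CaaX box, which starts with a cysteine codon and directs the lipid anchor. It is present in lamin A and Lmnb2 and absent from lamin C. The lamin A stretch, of a protein of 665 codons, runs over an intron within chr3:88482074-88482348 on the minus strand. The lamin C stretch, of a protein of 574 codons, lies at chr3:88483297-88483326 on the minus strand, and the Lmnb2 stretch at chr10:80902859-80902888 on the minus strand.
Lmna-201 (lamin A): cagagctcccagaacTGCAGCATCATGtaa
Lmna-203 (lamin C): caccaccgtgtgagtggcagccgccgctga
Lmnb2-204 (lamin B2): actacctcaaggggcTGCCGACTGATGtga

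The reads counted on genes numbered between 46529649 and 66364366 per tumor, and tumors of one site differed by more than counting noise. Melanocyte markers summed to between 10113 and 25658 CPM (reads relative to the TMM-scaled library size), so the labelled tissue was seen in every tumor. For replicates 1, 2 and 3 the sums were 10113, 18758 and 12984 CPM in footpad and 25658, 14902 and 17151 CPM in flank tumors. The sites overlapped through footpad replicate 2. Of these 10 markers 9 had a negative and 1 a positive log2 fold change, footpad over flank, with a median of -0.40, and edgeR called 0. T cell markers summed to between 0.481 and 2.02 CPM, with Cd3d and Cd3g at 0 reads in all 6 tumors. Footpad replicate 2 stood apart, with the highest level of 12 of 12 keratinocyte markers and 12 of 12 skeletal muscle markers. The results for Lmna, the Lmna to Lmnb1 ratio and the partners called are also given without it.

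Among the 10 genes, Lmna rose in footpad tumors and no other gene passed the test in either direction. The sites were tested with edgeR's quasi-likelihood method over 17210 genes, with a threshold of 0.05 on the Benjamini-Hochberg adjusted p, and folds are footpad over flank. The 1 gene called higher stands beside a background of 3.43% of all genes tested, or 2.89% when a fold of 2 or more was also required, and the 0 genes called lower stand beside 1.44%. At an unadjusted p under 0.05 there were 2 of 10 genes, Lmna and Lmnb1, beside 25.3% of all genes tested. DESeq2 called the same direction for Lmna, among 8.35% of genes higher, and called Lmnb1 lower, among 4.69%. The log2 fold change was above 0 for 5 genes and below 0 for 5, with a median of -0.13 against -0.004 over all genes tested. The study picked lamin genes for display from these same tumors, as genes raised in footpad tumors, so these counts are not independent evidence of a direction. Its text does not say which lamin genes. Of the 3 lamin genes here, 1 had a positive log2 fold change, Lmna, and 2 a negative one, Lmnb1 and Lmnb2.

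**Figure D1:**
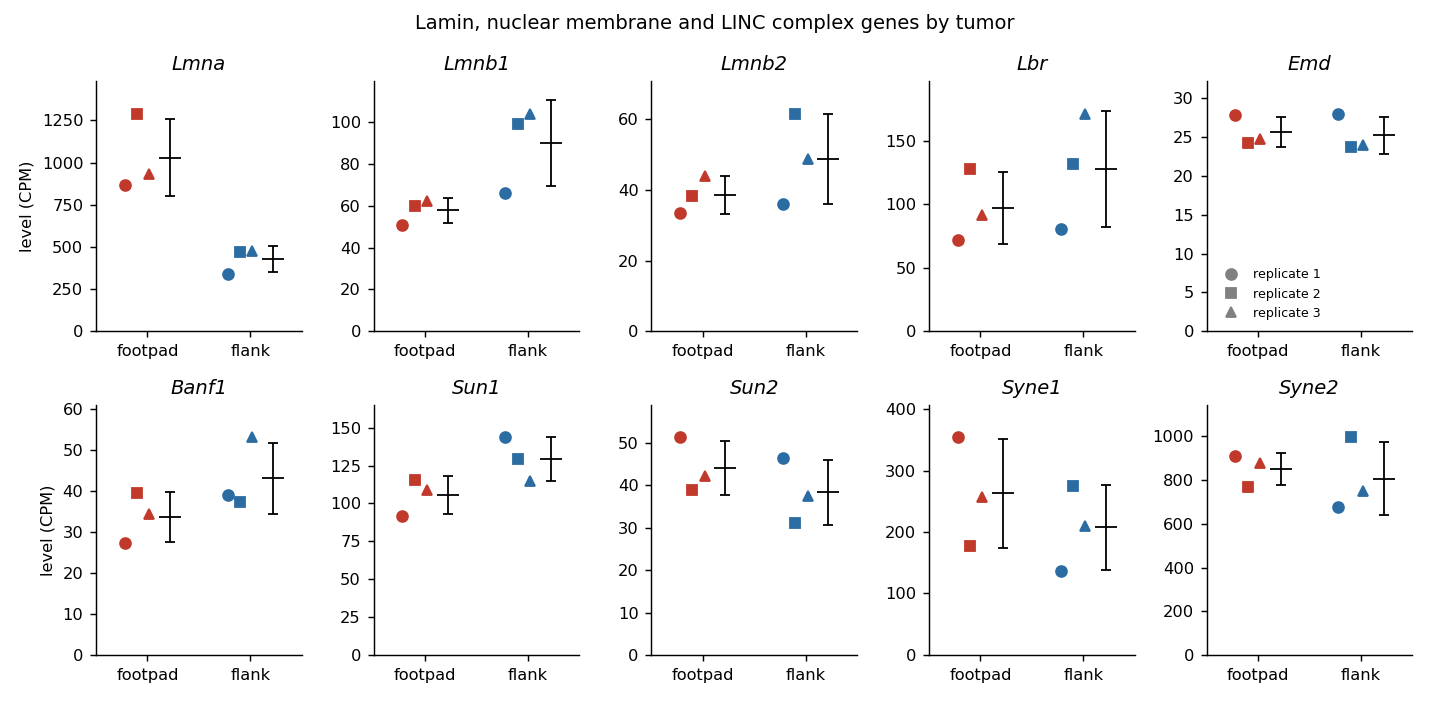
Level of each of the 10 genes in CPM (linear axis from 0), with one point per tumor and the mean and SD of 3 tumors beside each site. The footpad and flank points are apart for Lmna, which is higher in footpad tumors, and for Lmnb1, which is lower, and they overlap for the other 8 genes.

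Lmna lies at 88481148 to 88509932 of chromosome 3 (GRCm38). It had levels of 866, 1289.9 and 932 CPM in the footpad tumors, here and below in the order of replicates 1, 2 and 3. Its levels in the flank tumors were 337, 471 and 476 CPM. Every footpad tumor lay above every flank tumor, as did 17.5% of all genes tested. The means of 1029 ± 228 and 428 ± 79.1 CPM (SD, n = 3 each) gave a log2 fold change of 1.27 (standard error 0.22, approximate 95% interval 0.74 to 1.79, edgeR adjusted p = 0.0284). With 1 tumor left out at a time, the log2 fold change lay between 1.07 and 1.37. Without footpad replicate 2 it was 1.07 with an edgeR adjusted p of 0.0390. Lmna lost its call without footpad replicate 1 (edgeR adjusted p = 0.0828), footpad replicate 3 (0.112), flank replicate 1 (0.0567), flank replicate 2 (0.0548) or flank replicate 3 (0.0921), and with the replicate number as a block (0.0778), a fit in which no gene of the 17210 passed in either direction. By its p-value Lmna ranked 356 of 17210 genes, and by the size of its log2 fold change 2203.

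Summed markers of some other cell types differed between the sites as well. Counts of markers called higher by edgeR stand beside 3.43% of all genes tested. Of 14 fibroblast markers 10 were called higher. Their summed level ranged from 3177 to 4477 CPM in footpad tumors and from 151 to 538 CPM in flank tumors. The summed levels of 10 endothelial markers, 3 of them called higher, were 172 to 278 CPM against 114 to 135 CPM. Those of 10 macrophage markers, 1 of them called higher, were 263 to 299 CPM against 34.6 to 181 CPM. The log2 fold change was positive for all 14 fibroblast and all 10 macrophage markers. Among the endothelial markers it was positive for 9 and negative for 1. Neutrophil markers summed to 369, 6.87 and 179 CPM in footpad tumors and to 4.76 to 30.5 CPM in flank tumors, so the sites overlapped through footpad replicate 2 and were apart without it. All 8 of the tested neutrophil markers had a positive log2 fold change, and 0 were called by edgeR. Schwann cell markers, at 296 to 310.1 CPM and 248 to 320.5 CPM, overlapped between the sites in their sum. Of these 8 markers 1 was called higher by edgeR, and 4 had a positive and 4 a negative log2 fold change. In 3 all footpad tumors lay above all flank tumors, and in 0 below them, beside 17.5% and 14.9% of all genes tested. Most of the sum came from Mbp, at 232 to 244 CPM in footpad and 188 to 275 CPM in flank tumors. None of the markers in these 5 lists was at 0 in all tumors. Lmna is made in most differentiated cells, and the part of these cells in its level was not tested. In tumor tissue, fewer cells of a type and less RNA per cell cannot be told apart.

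Lmnb1, on chromosome 18 from 56707813 to 56753424, had levels of 51.0, 60.0 and 62.4 CPM in footpad tumors. Its flank levels were 66.3, 99.3 and 104 CPM. No footpad tumor reached the lowest flank tumor, flank replicate 1, a pattern shared by 14.9% of all genes tested. The means were 57.8 ± 6.03 and 89.9 ± 20.6 CPM (SD, n = 3 each), with a log2 fold change of -0.64 (standard error 0.19, interval -1.09 to -0.19). The gene did not pass edgeR's test (adjusted p = 0.0973, from 0.0337 to 0.271 over the alternatives). It passed with DESeq2 (adjusted p = 0.0337) and, in edgeR, without flank replicate 1 (log2 fold change -0.82, adjusted p = 0.0409). By immunohistochemistry the paper reports stronger LMNB1 staining in a number of footpad-grafted cells than in flank-grafted ones. Its legend gives those as B16F10 cells expressing YAP-5SA in C57BL/6J mice, so they are protein in other grafts, beside RNA here.

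Lamin B1 is known to fall when cells leave the cell cycle for good, so genes of dividing cells are given beside it. All 20 proliferation genes had a negative log2 fold change, with a median of -0.56. Of these 20 genes, 1 was called lower by edgeR, beside 1.44% of all genes tested, and DESeq2 called 7 lower, beside 4.69%. In 7 genes every footpad tumor lay below every flank tumor, beside 14.9%. Their summed levels were 2261, 3167 and 2788 CPM in footpad tumors and 3099, 4435 and 4562 CPM in flank tumors. The sites overlapped through footpad replicate 2 and were apart without it. Flank replicate 1 was the lowest flank tumor here, as it was for Lmnb1 but also for Lmna, Lmnb2, Lbr, Syne1 and Syne2. Among footpad tumors this sum was highest in replicate 2, and Lmnb1 in replicate 3. The part of proliferating cells in the Lmnb1 level was not tested.

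Lmnb2, the other B-type lamin gene, on chromosome 10 from 80901363 to 80918245, was at 33.4, 38.3 and 44.1 CPM in footpad tumors and at 35.9, 61.6 and 48.8 CPM in flank tumors. Flank replicate 1 lay among the footpad tumors. Between the means, the log2 fold change was -0.34 (standard error 0.21, interval -0.83 to 0.16, edgeR adjusted p = 0.361).

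**Figure D2:**
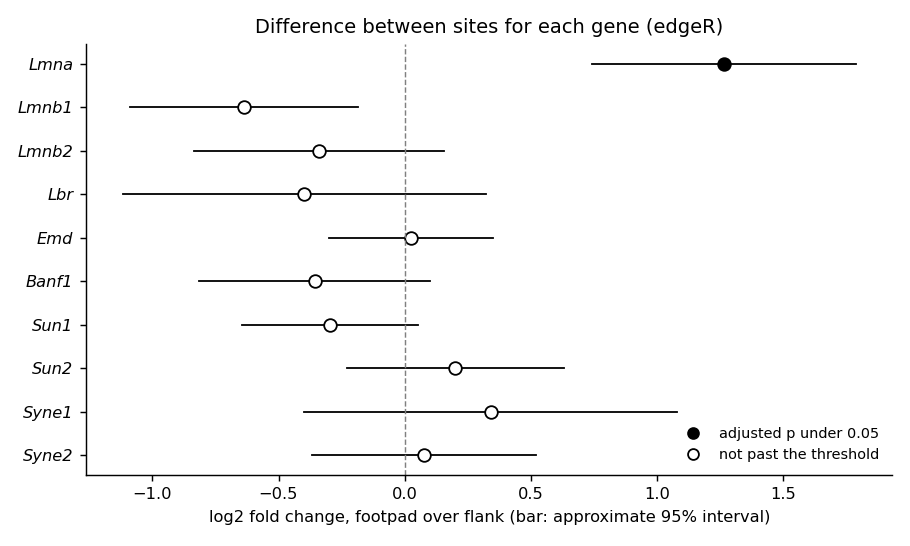
Log2 fold change of each gene, footpad over flank, from edgeR, with bars for the approximate 95% interval. The interval lies above 0 for Lmna and below 0 for Lmnb1, and it holds 0 for the other 8 genes. Lmna, at 1.27, is the filled point, with an adjusted p under 0.05.

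Levels of different genes were compared per transcript length, as FPKM. In footpad tumors Lmna was at 340 ± 88.5 FPKM (SD, n = 3), rank 163 of the 17210 genes tested, and in flank tumors at 143 ± 32.8 FPKM, rank 427. It was the highest of the 10 genes in all 6 tumors, and its range did not meet that of the next gene at either site. Syne2 and Banf1 followed in footpad tumors at 34.8 ± 1.81 and 31.9 ± 7.96 FPKM, and in flank tumors Banf1 preceded Syne2 at 40.01 ± 8.46 and 33.5 ± 9.80 FPKM. Sun2 was among the lowest, at 10.3 ± 0.749 FPKM in footpad and 8.99 ± 1.03 FPKM in flank tumors. Besides Lmna and the gene after it, the ranges of neighbors in this order were apart for 1 pair at each site. These were Lmnb1 and Emd in footpad tumors, at 18.2 ± 3.01 and 14.4 ± 0.103 FPKM, and Sun1 and Emd in flank tumors, at 27.8 ± 3.15 and 14.1 ± 0.589 FPKM.

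The A-type to B-type balance within a tumor does not depend on how libraries were scaled. The ratio of Lmna to Lmnb1 FPKM was 18.1, 22.1 and 15.8 in the footpad tumors and 5.50, 4.85 and 4.88 in the flank tumors. All footpad tumors lay above all flank tumors. The difference of the mean log2 ratios was 1.87, or 3.65-fold (exact two-sided permutation over the 6 tumors, p = 0.1, which is the lowest value this design can give). Without footpad replicate 2 the difference was 1.74.

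Summed over the lamin genes, Lmna made up 92.1%, 93.5% and 90.8% of the lamin FPKM in footpad tumors. In flank tumors its share was 79.0%, 76.1% and 77.8%. Lmnb1 made up 5.08%, 4.23% and 5.74% in footpad tumors against 14.4%, 15.7% and 15.9%, and Lmnb2 2.28% to 3.42% against 6.30% to 8.22%. The sites were apart for all 3 shares, which are parts of one total and were not tested. The summed lamin FPKM was 289, 469 and 348 in footpad tumors and 133, 216 and 204 in flank tumors. Within the B-type lamins, the ratio of Lmnb1 to Lmnb2 FPKM was 1.68 to 1.86 in footpad and 1.91 to 2.53 in flank tumors.

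**Figure D3:**
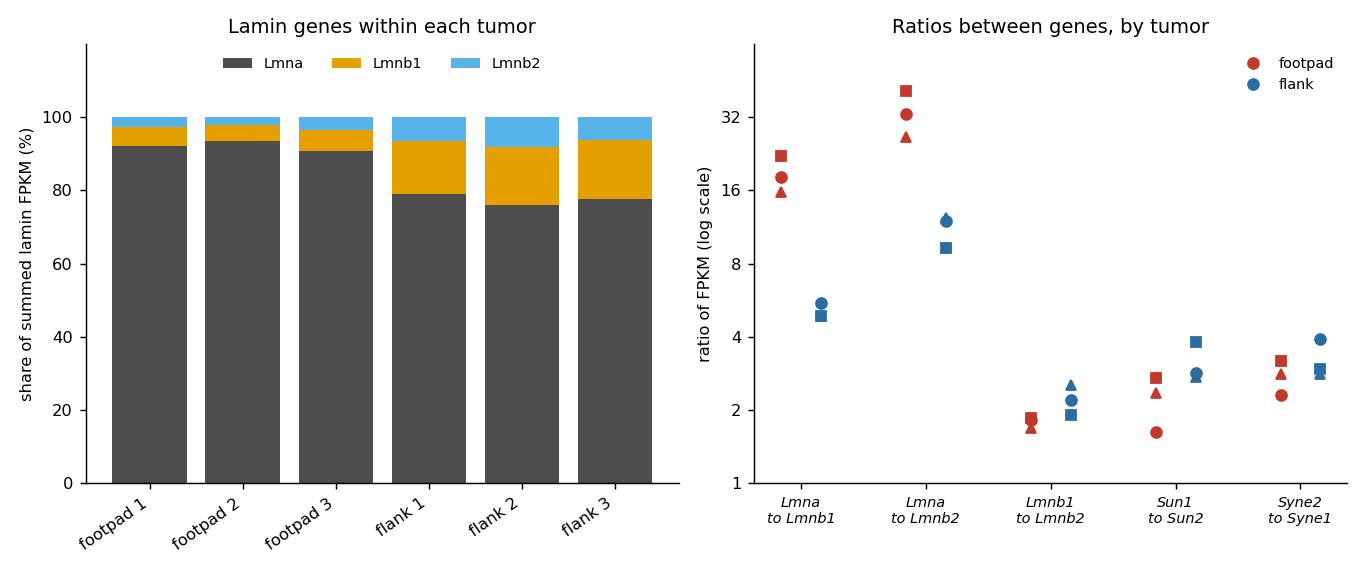
Left, share of the summed lamin FPKM (percent) taken by Lmna, Lmnb1 and Lmnb2 in each of the 6 tumors. Right, FPKM ratios between genes on a log axis, with circles, squares and triangles for replicates 1, 2 and 3. Lmna takes 90.8% or more in footpad tumors and 79.0% or less in flank tumors, and the Lmna to Lmnb1 ratio is 15.8 or more against 5.50 or less.

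Lbr, Emd and Banf1, the inner membrane and chromatin group, had 0 of 3 genes called. Lbr, the lamin B receptor, which holds heterochromatin to the envelope and is also a sterol reductase, was at 71.6, 128 and 91.5 CPM in footpad tumors and at 80.4, 132 and 171.5 CPM in flank tumors. Replicate 1 was the lowest tumor at each site and the sites overlapped. Its log2 fold change was -0.40 (standard error 0.31, interval -1.12 to 0.32, edgeR adjusted p = 0.454). Lbr and Syne1 had the largest standard errors of the 10 genes, 0.31 and 0.32.

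Emd encodes emerin, a LEM-domain protein that binds lamin A and whose loss causes a muscular dystrophy in people. It was at 27.9, 24.3 and 24.8 CPM in footpad tumors and at 28.0, 23.7 and 24.0 CPM in flank tumors. The levels lay within 1 narrow band at both sites, with replicate 1 the highest at each. For Emd the log2 fold change was 0.02 (standard error 0.14, interval -0.30 to 0.35, edgeR adjusted p = 0.931), and its sign was negative, at -0.0416, without footpad replicate 1.

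Banf1 encodes the barrier-to-autointegration factor, a small protein that ties DNA to LEM-domain proteins when the envelope re-forms after mitosis. It was at 27.3, 39.4 and 34.3 CPM in footpad tumors and at 39.1, 37.3 and 53.1 CPM in flank tumors. Flank replicate 3 was the highest and footpad replicate 1 the lowest. The sites overlapped through footpad replicate 2 and were apart without it. For Banf1 the log2 fold change was -0.36 (standard error 0.20, interval -0.81 to 0.10, edgeR adjusted p = 0.298). Without footpad replicate 2 it was -0.49 (edgeR adjusted p = 0.205).

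The LINC complex had 0 of 4 genes called. Sun1, whose protein spans the inner membrane and binds lamin A and nesprins, was at 91.6, 116 and 109 CPM in footpad tumors and at 144, 129.7 and 114.5 CPM in flank tumors. Footpad replicate 2 lay just above flank replicate 3, so the sites overlapped by 1 tumor. For Sun1 the log2 fold change was -0.29 (standard error 0.15, interval -0.64 to 0.05, edgeR adjusted p = 0.263).

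Sun2, its paralog in the same membrane, was at 51.3, 38.9 and 42.2 CPM in footpad tumors and at 46.4, 31.2 and 37.6 CPM in flank tumors. Replicate 1 was the highest at each site. For Sun2 the log2 fold change was 0.20 (standard error 0.18, interval -0.23 to 0.63, edgeR adjusted p = 0.531). The ratio of Sun1 to Sun2 FPKM was 1.63, 2.70 and 2.35 in footpad tumors and 2.84, 3.82 and 2.73 in flank tumors. The sites were apart by a margin of 2.70 in footpad replicate 2 against 2.73 in flank replicate 3, and this ratio was not tested.

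Syne1 and Syne2 encode the giant nesprins that carry actin-binding domains on the cytoplasmic side. Syne1 was at 354, 178 and 256 CPM in footpad tumors and at 137, 275.5 and 209.6 CPM in flank tumors. It varied widely within each site, and the footpad tumor with the most keratinocyte and muscle RNA, replicate 2, had the lowest footpad level. Its log2 fold change was 0.34 (standard error 0.32, interval -0.40 to 1.08, edgeR adjusted p = 0.536), and between 0.06 and 0.59 when 1 tumor was left out.

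Syne2 was at 908, 769 and 877 CPM in footpad tumors and at 676, 996 and 750.4 CPM in flank tumors. Flank replicates 1 and 2 were the lowest and the highest of all 6 tumors. The log2 fold change was 0.08 (standard error 0.19, interval -0.37 to 0.52, edgeR adjusted p = 0.835), and -0.0404 without flank replicate 1.

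The length by which the deposited FPKM values were scaled was not the same in each tumor for every gene. The count divided by the FPKM, set relative to that of Syne2, which has 1 RefSeq transcript, varied by 21.7% across the 6 tumors for Syne1 and by 5.92% for Lmna. For Lmnb1 it varied by 0.0255%. The ratio of Syne2 to Syne1 FPKM, 2.30 to 3.19 in footpad and 2.81 to 3.91 in flank tumors, carries this variation. The difference of the Lmna to Lmnb1 log2 ratio was 1.88 from counts, against 1.87 from FPKM.

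Partners of these proteins were taken as a list of 30 genes, of which 28 passed the filter on low counts. Of these, 1 rose and 1 fell by edgeR's test, beside 3.43% and 1.44% of all genes tested, 12 had a positive and 16 a negative log2 fold change, and the median was -0.05. All footpad tumors lay above all flank tumors for 5 genes and below them for 7, beside 17.5% and 14.9% of all genes tested. Syne3, which encodes the nesprin that binds plectin and so the intermediate filaments, was at 32.5, 19.97 and 28.2 CPM in footpad tumors and at 11.9, 11.6 and 9.38 CPM in flank tumors. All footpad tumors lay above all flank tumors, footpad replicate 2 being the lowest of them. The log2 fold change of Syne3 was 1.29 (standard error 0.22, edgeR adjusted p = 0.0253), and without footpad replicate 2 it was 1.47 (edgeR adjusted p = 0.0194). Each of the other 5 tumors, when left out, ended the call, with edgeR adjusted p values of 0.0919 and 0.119 without footpad replicates 1 and 3 and of 0.0525, 0.0548 and 0.101 without flank replicates 1, 2 and 3.

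Tmpo, which encodes the lamina-associated polypeptides 2 and is known to be high in dividing cells, was at 303, 379.9 and 353 CPM in footpad tumors and at 532, 549.6 and 609.7 CPM in flank tumors. The highest footpad tumor was below the lowest flank tumor. Its log2 fold change was -0.71 (standard error 0.15, edgeR adjusted p = 0.0445). Leaving out any 1 tumor ended the call, with edgeR adjusted p values of 0.151, 0.0507 and 0.158 without footpad replicates 1, 2 and 3 and of 0.0617, 0.0836 and 0.137 without flank replicates 1, 2 and 3. The proliferation genes given beside Lmnb1 had the same sign, and their part in the Tmpo level was not tested.

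The other partners with the largest differences did not pass edgeR's test. Prr14, a tether of heterochromatin to the lamina, had a log2 fold change of 0.59 (edgeR adjusted p = 0.179). Sun3, a SUN protein of the testis, was at 0.118 ± 0.103 CPM in footpad and 0.540 ± 0.270 CPM in flank tumors (SD, n = 3 each), with a log2 fold change of -2.14 (edgeR adjusted p = 0.204). Footpad replicate 1 had 0 reads of it. Nemp2, an inner membrane protein, had -0.75 (edgeR adjusted p = 0.1103). DESeq2 called Nemp2 lower (adjusted p = 0.0415), beside 4.69% of all genes it tested, and called neither Prr14 nor Sun3.

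Lamin A is made from a longer precursor through the CaaX box shown above, and the genes for that processing are given as a set chosen after their values were seen. Zmpste24, the protease that removes the farnesylated end, had a log2 fold change of 0.17 (edgeR adjusted p = 0.596). Icmt, the methyltransferase, was at 100.4 ± 12.1 CPM in footpad and 76.7 ± 9.02 CPM in flank tumors (SD, n = 3 each), with a log2 fold change of 0.39 (edgeR adjusted p = 0.162). The farnesyltransferase genes Fnta and Fntb had 0.02 and -0.33, and the CaaX protease gene Rce1 had 0.03. None of these 5 genes passed edgeR's test. For 1 of them, Icmt, all footpad tumors lay above all flank tumors, as did 17.5% of all genes tested.

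Nucleoporins, the proteins of the pore complexes set into the same envelope, were described with 28 tested genes. EdgeR and DESeq2 each called 0 higher and 0 lower, and 4 of 28 had an unadjusted p under 0.05 in edgeR, beside 25.3% of all genes tested. The log2 fold change was positive for 10 and negative for 18, with a median of -0.15. Pom121 and Nup214 had the most positive values, 0.51 and 0.46 (edgeR adjusted p = 0.284 and 0.233), and Nup210 and Nup37 the most negative, -0.68 and -0.48 (edgeR adjusted p = 0.191 and 0.193). All footpad tumors lay above all flank tumors for 2 and below them for 5, beside the same 17.5% and 14.9%.

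**Figure D4:**
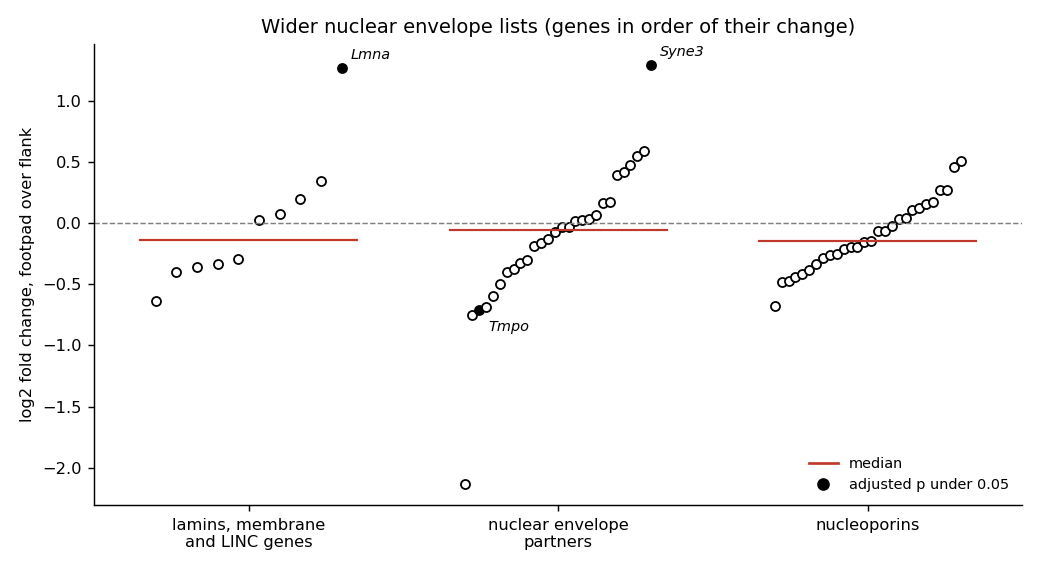
Log2 fold changes, footpad over flank, of the 10 genes, of 28 nuclear envelope partners and of 28 nucleoporins, in order of size within each list, with the median of each list as a line. Filled points passed edgeR's test at an adjusted p under 0.05 and are Lmna, Syne3 and Tmpo, while the medians lie between -0.15 and -0.05.

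The genes whose levels followed Lmna and Lmnb1 most closely over the 6 tumors were found from log2 CPM centred on the mean of each gene, as a description. Nearest to Lmna was Angptl2, which encodes a secreted angiopoietin-like protein, with a root mean square difference of 0.0807 on the log2 scale against a median of 0.777 over the other genes tested. It was at 151, 251 and 164 CPM in footpad tumors and at 60.4, 82.8 and 95.9 CPM in flank tumors. Next were Yjefn3 and the gene of the lysosomal protease cathepsin H, Ctsh, with differences of 0.103 and 0.113. Yjefn3 was low, at 0.897 to 3.35 CPM over the 6 tumors, and was not called (edgeR adjusted p = 0.0937). Nearest to Lmnb1 were the transcription factor gene Foxc1 (0.0222), the ribosomal protein pseudogene Rpsa-ps9 (0.0383) and the adhesion receptor gene Adgra3 (0.0475), against a median of 0.497. Rpsa-ps9 was low, at 1.91 to 3.95 CPM, and its reads may come from its parent gene.

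**Figure D5:**
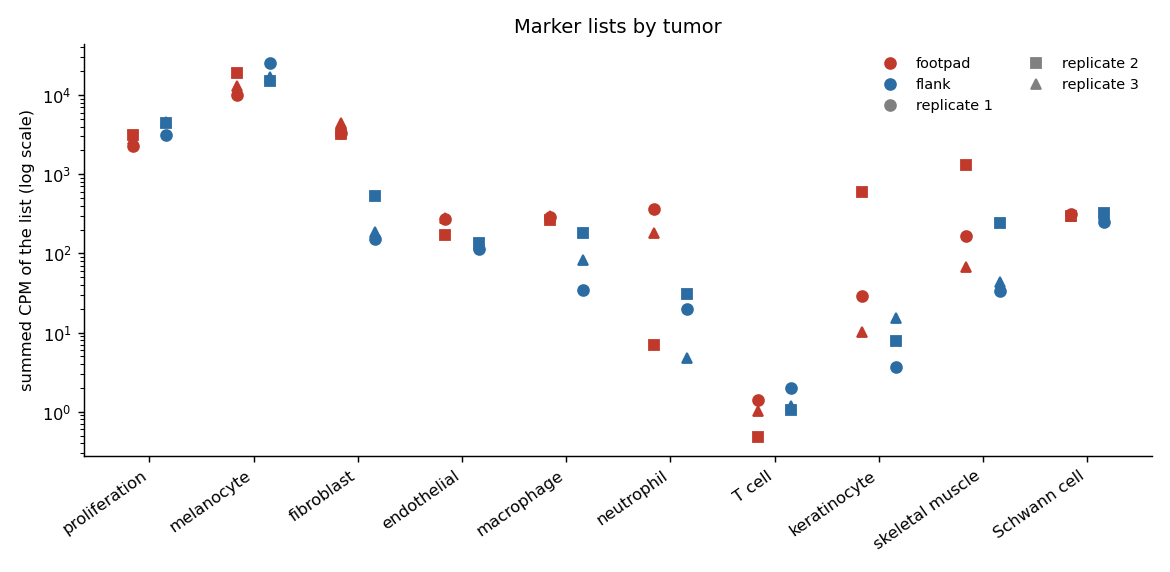
Summed CPM of each marker list on a log axis, with one point per tumor, colors for the sites and shapes for the replicates. Fibroblast markers lie between 3177 and 4477 CPM in footpad and between 151 and 538 CPM in flank tumors, and footpad replicate 2 is highest for keratinocyte and skeletal muscle markers.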

How the data were processed

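RNA of 6 B16F10 tumors was analysed, with site and replicate number taken from the sample labels. The authors trimmed reads with Trimmomatic and aligned them with HISAT2 2.1.0 to mm10. The authors deposited raw read counts for each gene as whole numbers, and FPKM, in which they adjusted the counts for transcript length and library depth. The counting program and its rule for multi-mapping reads are not given in the sources used here. The 10 genes and all lists were chosen with earlier results of these data known. Tests were run on the counts with edgeR 4.0.16 under R 4.3.3 (filterByExpr at its defaults, TMM scaling, glmQLFit and glmQLFTest, Benjamini-Hochberg adjustment over 17210 genes, threshold 0.05). Standard errors were approximated from the log2 fold change and the F statistic, and the common coefficient of biological variation was 0.338. Depth ranged from 46529649 to 66364366 reads per tumor. P-values of the fits set the difference between the sites against the spread among tumors of one site. Except under the replicate block, they treat the 6 tumors as independent, and whether the sites shared mice is not stated. The fits were tested on simulated data.

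Named genes are the 10 genes, partners and nucleoporins called or with the 2 largest differences in each direction, and the 3 nearest genes to Lmna and Lmnb1. The genes of lamin A processing are the exception. Lists were described by counts and medians, and marker lists by summed CPM. The alternatives were DESeq2 1.42.0, upper-quartile scaling, no filter, at least 10 counts in every tumor, limma 3.58.1 on log2(FPKM + 1) and log2(FPKM + 0.1) with a mean FPKM of at least 0.1, the replicate number as a block, and leaving out each tumor. Coordinates are from RefSeq on GRCm38.p6 and coding ends from GENCODE M21. Nucleoporin gene Nup58 was not found under that symbol, and Syne4 and Banf2 did not pass the filter. Figures used Python 3.11.15 with matplotlib 3.10.9.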

Additional observations from a re-analysis of the deposited data

How the results depend on the processing

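Of 130 log2 fold changes of the 10 genes under alternatives, 118 kept their direction and side of the threshold, 6 lost the call, all of Lmna, 2 gained one, both of Lmnb1, and 4 changed sign. Those 4 were of Emd, between -0.0416 and 0.10 without 1 tumor, with -0.0416 without footpad replicate 1, -0.0234 without flank replicate 2 and -0.0165 without flank replicate 3, and of Syne2, at -0.0404 without flank replicate 1, with a highest value of 0.25. None of these 4 passed the test. Of 194 log2 fold changes of 15 other named genes, 162 kept both, 28 lost the call, 4 gained one and 0 changed sign.

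The main count of 1 of the 10 genes higher was 0 under the replicate block and 0 to 1 without a tumor, and the count of 0 lower was 1 with DESeq2 and 0 to 1 without a tumor. Partners called higher, 1 in the main test, were 3 with DESeq2, 2 with upper-quartile scaling, 3 with at least 10 counts in every tumor, 0 under the block and 0 to 1 without a tumor. Partners called lower, also 1, were 3 with DESeq2, 2 with at least 10 counts, 0 without a filter, 0 with limma at either pseudocount, 0 under the block and 0 without any tumor. The causes were not tested.

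Over all genes, calls were 590 higher and 248 lower in the main test, 1605 and 901 with DESeq2, 713 and 274 without footpad replicate 2, 0 and 0 under the block and without footpad replicate 3, 26 and 5 without footpad replicate 1, 36 and 10 without flank replicate 3, 272 and 116 without flank replicate 1, and 441 and 112 without flank replicate 2. The median over all genes lay between -0.017 and 0.057. Same-numbered tumors had correlations of 0.0544, -0.0965 and -0.115 in their deviations from the site means, and differently numbered tumors between -0.199 and 0.264, so the deviations gave no sign of a pairing by number, which does not show that no mouse carried both sites, and Lmna under the block had an adjusted p of 0.0778 from edgeR. The Lmna to Lmnb1 log2 difference was 1.88 from counts and 1.74 to 1.98 without a tumor. Under the replicate block it stays at 1.87 by its arithmetic, so this value tests nothing. The exact permutation p under the block was 0.25, the lowest value that design can give.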
